A study of Mus musculus with 12 samples.

Results

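The genes described here are the chemokines and their receptors, taken as every gene whose symbol in the array's annotation is Ccl, Cxcl, Xcl, Cx3cl, Ccr, Cxcr or Xcr followed by digits and at most 1 letter. The receptor Cx3cr1 falls outside that rule and was treated as a gene of the pathway. Of 18193 genes with a probe set of their own, 48 matched, comprising 33 ligands and 15 receptors. The ligands divide into 18 CC, 13 CXC, 1 CX3C and 1 XC gene, and the receptors into 9 CC, 5 CXC and 1 XC gene. A probe set is the group of short probes that measures 1 transcript region on an Affymetrix array, and the 48 genes have 75 of them. A gene with several probe sets is represented by the brightest, judged by the average of all 12 arrays, and 17 genes have further probe sets, 27 in all.

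RNA was extracted from the testes of embryos of 2 mouse strains (male genital ridges in the sample labels). M19 is the chromosome substitution strain 129.MOLF-Chr 19, in which chromosome 19 of the MOLF strain replaces that of 129, and the other strain is 129/Sv, called 129 here. Both strains share the 129 background, on which testicular germ cell tumours arise, and M19 males are known to develop them often. Each strain was sampled at embryonic days E13.5, E15.5 and E17.5, with 2 arrays per strain and stage, and this small number of arrays sets the precision. The series lists the strain comparison at each stage and the steps between successive stages in each strain as its questions. The labels state that a pool of 40 testis pairs served 2 arrays, which leaves the 2 arrays of a group possibly from 1 pool, in which case the p-values reflect technical spread.

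Chemokines are small secreted proteins that attract cells along a concentration gradient, and they are classed by the spacing of their first cysteines into CC, CXC, CX3C and XC types. They act through receptors of the G protein-coupled family, and most of them direct leukocytes. In the mouse embryo Cxcl12 and its receptor Cxcr4 guide primordial germ cells to the genital ridge, and the atypical receptor Ackr3 takes up Cxcl12 without G protein signalling. Ccl17 and Ccl22 share the receptor Ccr4, and Cx3cl1 is a membrane-bound chemokine that binds Cx3cr1.

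Values are deposited signals taken as log2, and a change of 1 unit is then a change of the signal by a factor of 2. Array medians lay between 8.10 and 8.27, and the median of all probe set means was 8.17. Sertoli cell markers averaged 10.82 to 11.22 per array, germ cell markers 10.06 to 11.24 and Leydig cell markers 10.84 to 12.97, so the labelled tissue's defining cells were measured in all groups. Replicate 1 of 129 at E13.5 stood apart. The 18S ribosomal RNA controls averaged 9.69 there and 6.88 to 8.38 elsewhere. On it 41 of the 48 chemokine and receptor genes were higher than on its replicate, by a median of 0.33. Of all genes, 59.3% were higher on it than on its replicate. In the other groups 37.3% to 57.6% of all genes were higher on replicate 1. The SD of the replicate difference over all probe sets was 0.38 in this group and 0.161 to 0.292 in the others. Both 129 arrays at E15.5 also carried a high signal of keratinocyte, muscle and cartilage markers, given below beside Cxcl14. A gene was called changed where limma's Benjamini-Hochberg adjusted p over all 45037 probe sets was under 0.05, and each difference is M19 minus 129, or a later stage minus an earlier one, with the standard error of the model. In whole tissue, fewer cells of a type and less RNA per cell cannot be told apart.

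None of the 48 genes lies on chromosome 19, the substituted chromosome. The largest groups lie on chromosome 11, with 14 genes, chromosome 5, with 10, and chromosome 9, with 9. Ccl22, Cx3cl1 and Ccl17 are direct neighbours on chromosome 8 in the RefSeq annotation of build GRCm38.p6, with 0 protein-coding genes between them. The 4 genes called in any comparison were Ccl17, Cxcl12, Cx3cl1 and Cxcl14, all of them ligands. Their promoter windows, from RefSeq and running from 250 bases before to 50 bases after the gene start in build GRCm38.p6, are shown with that of Ccl22, the neighbour of Ccl17 and Cx3cl1 that was not called. Capitals mark matches to the 5 strings searched on both strands.

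Ccl17 promoter, chr8:94810203-94810502, plus strand: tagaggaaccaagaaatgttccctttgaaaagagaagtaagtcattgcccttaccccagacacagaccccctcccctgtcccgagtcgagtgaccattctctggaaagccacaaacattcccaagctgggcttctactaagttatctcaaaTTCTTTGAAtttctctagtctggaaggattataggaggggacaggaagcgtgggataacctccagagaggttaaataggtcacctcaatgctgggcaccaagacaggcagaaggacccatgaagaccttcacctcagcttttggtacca
Cx3cl1 promoter, chr8:94771930-94772229, plus strand: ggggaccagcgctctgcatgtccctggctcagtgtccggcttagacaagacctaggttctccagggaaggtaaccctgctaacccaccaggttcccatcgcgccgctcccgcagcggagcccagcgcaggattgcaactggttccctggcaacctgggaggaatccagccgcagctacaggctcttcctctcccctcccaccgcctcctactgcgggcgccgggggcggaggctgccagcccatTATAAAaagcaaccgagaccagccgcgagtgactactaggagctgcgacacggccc
Ccl22 promoter, chr8:94745434-94745733, plus strand: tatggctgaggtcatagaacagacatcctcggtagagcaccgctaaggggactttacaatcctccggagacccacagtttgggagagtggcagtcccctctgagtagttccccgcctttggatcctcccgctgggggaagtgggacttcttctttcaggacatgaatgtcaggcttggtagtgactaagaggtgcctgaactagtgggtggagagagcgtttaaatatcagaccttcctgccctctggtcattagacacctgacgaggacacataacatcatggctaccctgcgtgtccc
Cxcl12 promoter, chr6:117168285-117168584, plus strand: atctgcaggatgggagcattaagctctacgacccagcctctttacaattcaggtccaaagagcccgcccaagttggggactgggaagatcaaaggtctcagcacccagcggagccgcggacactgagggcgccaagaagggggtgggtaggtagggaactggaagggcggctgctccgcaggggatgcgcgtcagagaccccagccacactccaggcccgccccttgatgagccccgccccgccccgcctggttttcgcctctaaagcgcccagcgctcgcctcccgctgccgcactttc
Cxcl14 promoter, chr13:56296502-56296801, minus strand: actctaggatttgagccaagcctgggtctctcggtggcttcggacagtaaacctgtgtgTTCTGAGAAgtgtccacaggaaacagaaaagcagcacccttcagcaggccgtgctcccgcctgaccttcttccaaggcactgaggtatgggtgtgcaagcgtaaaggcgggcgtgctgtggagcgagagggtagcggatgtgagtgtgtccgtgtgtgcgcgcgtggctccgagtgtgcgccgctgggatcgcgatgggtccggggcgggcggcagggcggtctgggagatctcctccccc

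The strings were TATAAA, the core of the TATA box, GGANTTTCC, of the NF-kappaB type, TTCNNNGAA, of the STAT type, TGANTCA, of the AP-1 type, and CAAGGTCA, bound by the steroidogenic factor Nr5a1. The Ccl17 window holds TTCTTTGAA, of the STAT type, 99 bases before the start. The Cxcl14 window holds another match to that type, TTCTGAGAA, 191 bases before the start, and the Cx3cl1 window holds TATAAA 6 bases before it. The windows of Ccl22 and Cxcl12 hold none of the 5 strings, and no match overlaps another in the windows shown. Windows were at hand for 35 of the 48 genes, 39 windows in all. TTCNNNGAA occurred in 3 of these 39 windows and in 8.3% of all 32851 windows, TATAAA in 11 and in 13.6%, and TGANTCA in 7 and in 7.81%. GGANTTTCC occurred in 5 of the 39 windows and in 1.25% of all windows, and CAAGGTCA in 1 and in 1.56%. The 5 windows with GGANTTTCC belong to Cxcl1, Cxcl2, Cxcl3, Cxcl10 and Ccr3, none of which was called in any comparison. A match describes the letters of the window and does not show that a factor binds there.

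Ccl17 changed most of the 48 genes. It is a CC chemokine known for attracting T cells through Ccr4. In M19 its signal was 7.66 and 7.74 at E13.5, 9.94 and 9.73 at E15.5 and 11.66 and 11.53 at E17.5. In 129 it was 8.04 and 7.96 at E13.5, 10.29 and 10.44 at E15.5 and 12.01 and 12.04 at E17.5. All 4 arrays of each stage lay above all 4 of the stage before, and within each stage both M19 arrays lay below both 129 arrays.

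Averaged over the strains, Ccl17 was at 11.81 at E17.5 and 7.85 at E13.5, a rise of 3.96 ± 0.08 (SE, 4 arrays per stage; limma adjusted p = 3.32e-10). The step to E15.5 was 2.13 ± 0.12 in M19 (adjusted p = 2.42e-06) and 2.36 ± 0.12 in 129 (adjusted p = 1.48e-06). Both strains rose again by E17.5. That step was 1.76 ± 0.12 in M19 (adjusted p = 4.11e-05) and 1.67 ± 0.12 in 129 (adjusted p = 4.46e-05). Ccl17 has 1 probe set, so no second one on the array checks these values.

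Cxcl12, the ligand that guides primordial germ cells and is made by stromal cells in many tissues, also rose with stage. Its signal in M19 was 12.00 and 12.02 at E13.5, 12.99 and 13.02 at E15.5 and 13.30 and 13.38 at E17.5. Its signal in 129 was 12.09 and 12.32 at E13.5 and 12.90 and 13.00 at E15.5, with a mean of 13.46 at E17.5 (SD 0.05, n = 2). All 4 arrays of each stage lay above those of the stage before, with the widest gap between E13.5 and E15.5. The step to E15.5 was 1.00 ± 0.12 in M19 (adjusted p = 0.000417) and 0.75 ± 0.12 in 129 (adjusted p = 0.00326). The step to E17.5 was 0.42 ± 0.08 averaged over the strains (adjusted p = 0.0123), and it was not called without replicate 1 of M19 at E15.5 (adjusted p = 0.0618) or of 129 at E17.5 (0.0507). Neither strain passed the test alone at that step, with 0.34 in M19 (adjusted p = 0.173) and 0.50 in 129 (adjusted p = 0.0609). From E13.5 to E17.5 the rise was 1.29 ± 0.08 (adjusted p = 1.31e-06).

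The other probe sets of Cxcl12 gave a different course. Probe set 1417574_at averaged 11.99 at E13.5, 12.49 at E15.5 and 12.09 at E17.5 in M19, and 12.06, 12.34 and 12.19 at the same stages in 129. It rose by 0.39 ± 0.07 at E15.5 relative to E13.5 (adjusted p = 0.00563), and differed by -0.27 ± 0.07 between E17.5 and E15.5 (adjusted p = 0.0527). Its difference between E17.5 and E13.5 was 0.12 ± 0.07 (adjusted p = 0.292). Probe set 1439084_at differed by 0.12 ± 0.12 between E17.5 and E13.5 and was not called. By strain, 1417574_at rose at E15.5 in M19, by 0.50 ± 0.10 (adjusted p = 0.0171), and its step in 129, 0.28 ± 0.10, was not called (adjusted p = 0.204). The step of 1439084_at to E15.5 was 0.15 in M19 and -0.17 in 129, neither called. With the mean of all 3 probe sets the step of Cxcl12 to E15.5 in 129 was 0.29 and was not called (adjusted p = 0.0609). The further rise at E17.5 was called in the brightest probe set alone.

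**Figure D1:**
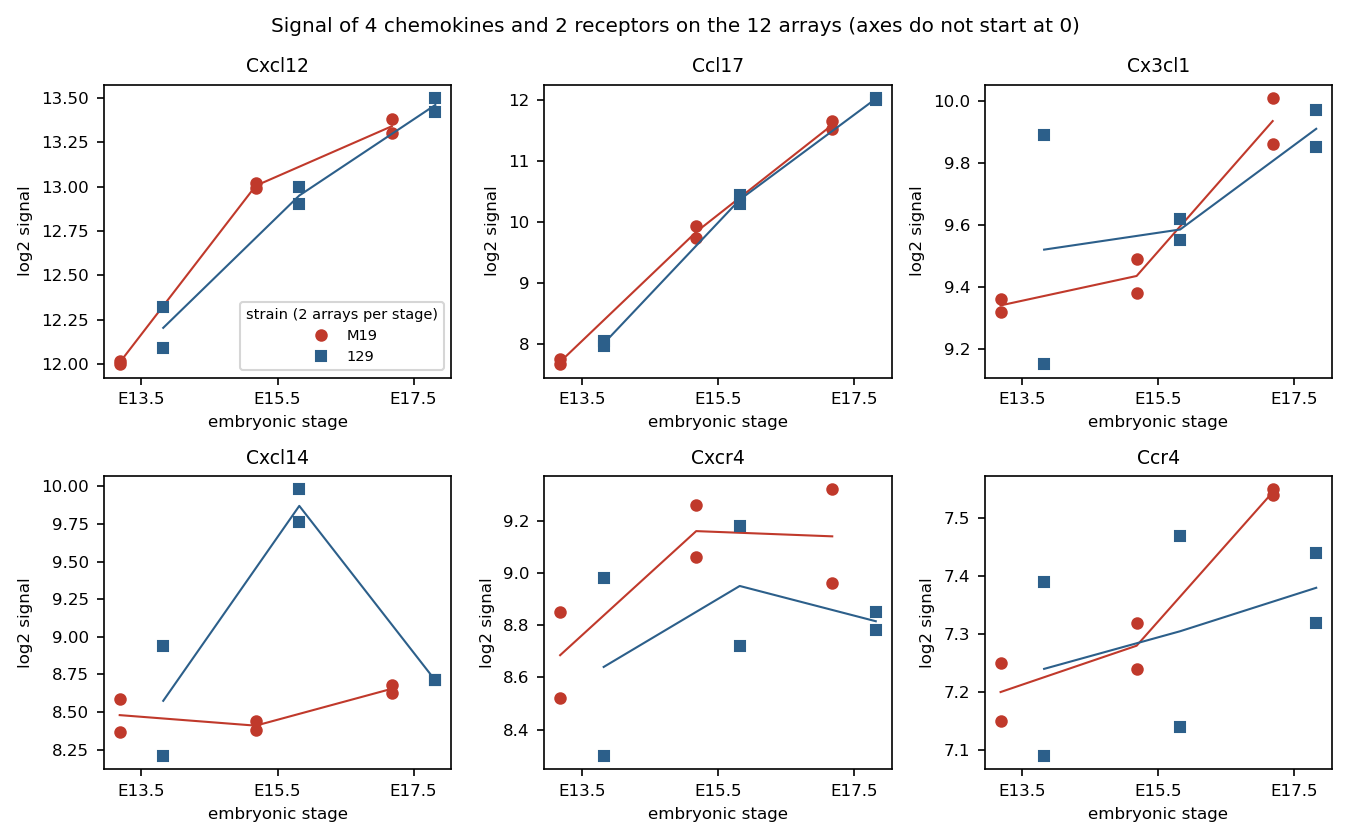
Log2 signal of single chemokine and receptor genes on each array (vertical axis, not starting at 0) against embryonic stage (horizontal axis), with M19 as red circles and 129 as blue squares, 2 arrays per strain and stage, drawn side by side, and lines through the group means. Ccl17 lies at 8.04 or less on all E13.5 arrays and at 11.53 or more on all E17.5 arrays, with M19 below 129 at each stage, and Cxcl14 stands high on both 129 arrays of E15.5.

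Cx3cl1, the gene between Ccl22 and Ccl17 on chromosome 8, was higher at E17.5. In M19 it read 9.36 and 9.32 at E13.5, 9.38 and 9.49 at E15.5 and 10.01 and 9.86 at E17.5. The 129 arrays read 9.89 and 9.15 at E13.5, 9.55 and 9.62 at E15.5 and 9.85 and 9.97 at E17.5. All 4 E17.5 arrays lay above all 4 E15.5 arrays, and they overlapped with E13.5 because of the value of 9.89 on replicate 1 of 129, the array with the high 18S signal. The mean was 9.92 at E17.5 and 9.43 at E13.5, a rise of 0.49 ± 0.14 (adjusted p = 0.0249). The rise was 0.68 ± 0.08 without replicate 1 of 129 at E13.5 (adjusted p = 0.00033) and 0.31 ± 0.08 without replicate 2 of that group (adjusted p = 0.0251). The call was lost when either M19 array of E13.5, either 129 array of E17.5 or replicate 1 of M19 at E17.5 was left out (0.45 to 0.52, adjusted p up to 0.0837). The step from E15.5 to E17.5, 0.41 ± 0.14, was not called (adjusted p = 0.102). A pair of probe sets with lower means rose too.
Probe set 1415804_at of Cx3cl1 rose by 0.70 ± 0.10 between E13.5 and E17.5 (adjusted p = 0.000461), and 1441884_x_at by 1.39 ± 0.17 (adjusted p = 0.000155). Both also rose between E15.5 and E17.5, by 0.59 ± 0.10 (adjusted p = 0.00494) and 0.83 ± 0.17 (adjusted p = 0.0138). The remaining probe set, 1421610_at, differed by 0.31 ± 0.11 between E17.5 and E13.5 (adjusted p = 0.0559).

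The receptors of these ligands did not pass the test. Ccr4, the receptor of Ccl17 and Ccl22, read 7.25 and 7.15 at E13.5, 7.24 and 7.32 at E15.5 and 7.55 and 7.54 at E17.5 in M19. Its 129 arrays read 7.39 and 7.09 at E13.5, 7.14 and 7.47 at E15.5 and 7.44 and 7.32 at E17.5. Ccr4 differed by 0.24 ± 0.10 between E17.5 and E13.5 and was not called (adjusted p = 0.111). Ccl22, the second ligand of Ccr4 and known from macrophages and dendritic cells, read 8.19 and 8.09 at E13.5, 8.18 and 8.17 at E15.5 and 8.42 and 8.45 at E17.5 in M19. On the 129 arrays Ccl22 read 8.54 and 8.09 at E13.5, 8.38 and 8.42 at E15.5 and 8.57 and 8.42 at E17.5. Its difference between E17.5 and E13.5 was 0.24 ± 0.10 (adjusted p = 0.12), so of the 3 neighbours on chromosome 8 Ccl22 alone was not called. Cx3cr1, the receptor of Cx3cl1 on microglia and macrophages, read 7.56 and 7.50 at E13.5, 7.33 and 7.11 at E15.5 and 7.25 and 7.55 at E17.5 in M19, and 7.30 and 7.71 at E13.5, 7.33 and 7.72 at E15.5 and 7.52 and 7.63 at E17.5 in 129, with overlapping strains at every stage.

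Over all 48 genes, 3 were called higher at E17.5 than at E13.5, averaged over the strains, or 6.25%, and 0 lower. The share of all 18193 genes called higher in that comparison was 16.3%, so calls were not more common among these genes than among all genes. The median difference was 0.10 over the 48 genes and 0.06 over all genes. Between E15.5 and E13.5, averaged over the strains, 3 of the 48 were called higher, against 9.8% of all genes, and these were Ccl17, Cxcl12 and Cxcl14. The averaged difference of Cxcl14 was 0.61 ± 0.14 (adjusted p = 0.0156), made up of 1.30 in 129 and -0.07 in M19. It was not called without replicate 2 of M19 at E13.5 (adjusted p = 0.0764), replicate 2 of 129 at E15.5 (0.0524), or replicate 1 (0.0507) or 2 (0.0624) of M19 at E15.5. Between E17.5 and E15.5 the calls were Ccl17 and Cxcl12, against 4.46% of all genes. By strain, 2 genes rose in M19 between E13.5 and E15.5 (background 5.74%) and 3 in 129 (background 4.46%). Ccl17 was the 1 gene to rise between E15.5 and E17.5 in M19 (background 1.45%) and in 129 (background 1.18%).

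These counts moved with the array that stood apart. Without replicate 1 of 129 at E13.5, 10 of the 48 genes were called higher at E17.5 than at E13.5, or 20.8%, against 24.9% of all genes, and the medians were 0.16 and 0.11. Beside Ccl17, Cxcl12 and Cx3cl1, the genes called were Cxcl16 at 0.47 ± 0.10 (adjusted p = 0.00701), Ccl22 at 0.35 ± 0.08 (adjusted p = 0.00906), Ccl4 at 0.51 ± 0.13 (adjusted p = 0.0176), Cxcl14 at 0.34 ± 0.09 (adjusted p = 0.0196), Xcl1 at 0.62 ± 0.18 (adjusted p = 0.0252), Cxcl11 at 0.39 ± 0.12 (adjusted p = 0.0309) and Ccr4 at 0.32 ± 0.10 (adjusted p = 0.0325). Without the other 129 array of this stage, replicate 2, Ccr1 and Cxcr4 were called beside Ccl17, Cx3cl1 and Cxcl12. The share of all genes called was not counted for that fit. The values given here for the stage comparison are those with all 12 arrays unless said otherwise.

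**Figure D2:**
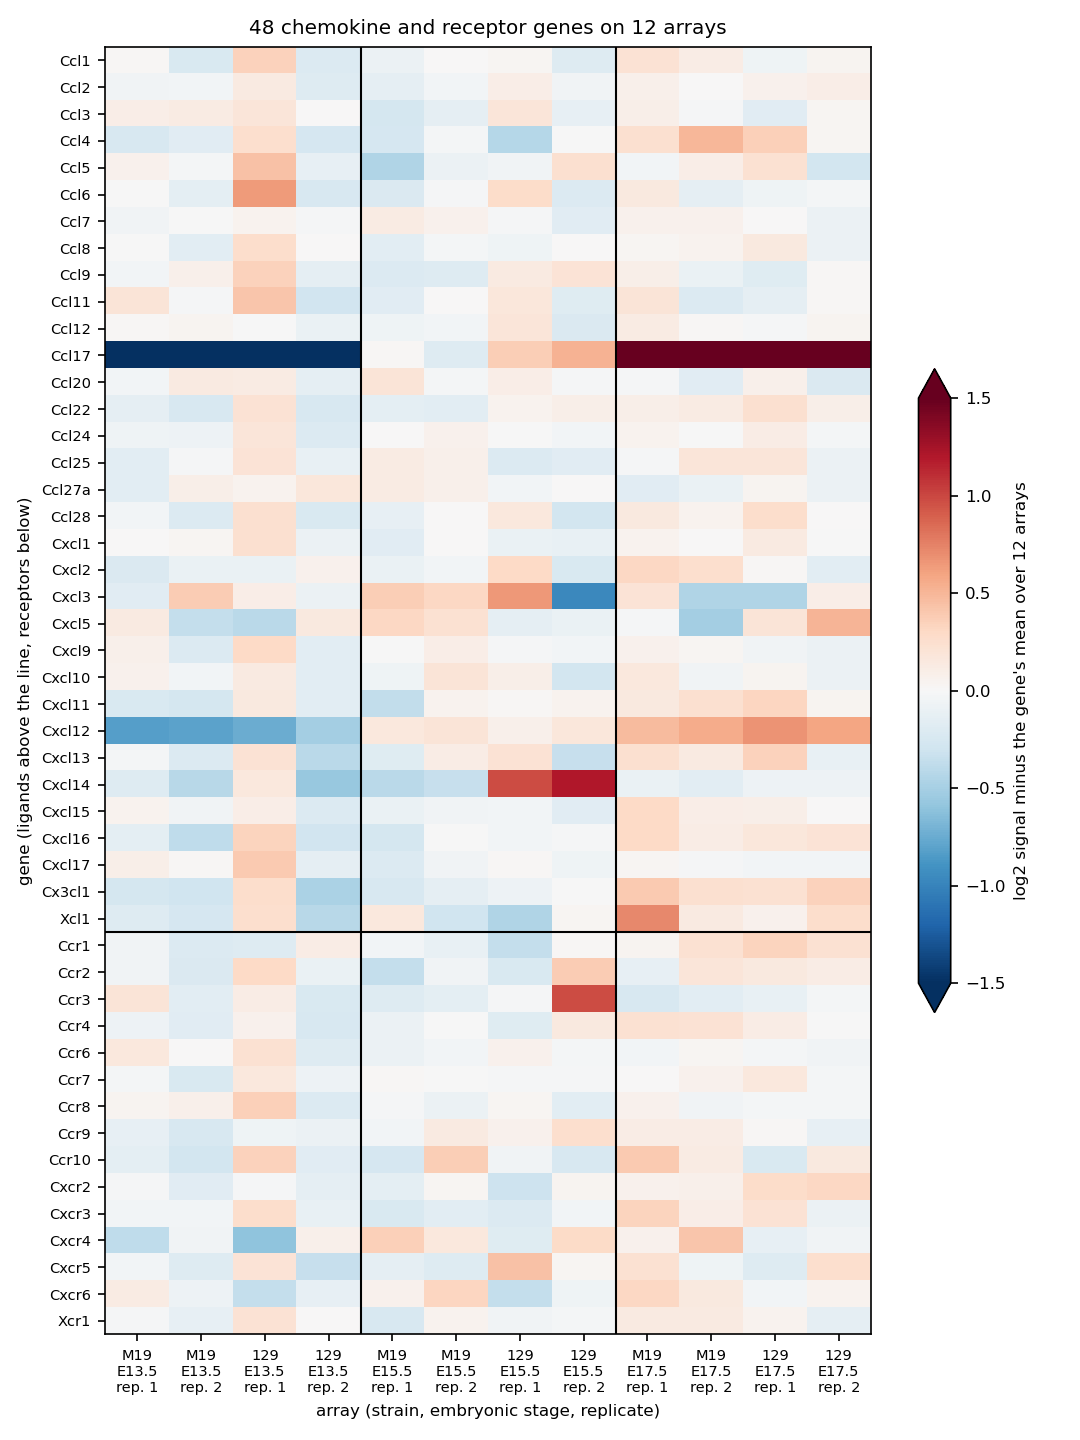
Each of the 48 genes (vertical axis, ligands above the line and receptors below) on each of the 12 arrays (horizontal axis, by stage, M19 left of 129), coloured by log2 signal minus the gene's mean over the 12 arrays, with red high, blue low and colours ending at 1.5. Ccl17 and Cxcl12 turn from blue to red over the stages in both strains, and Cxcl14 is red on both 129 arrays of E15.5. Replicate 1 of 129 at E13.5 is higher than its replicate for 41 of 48 genes, against 59.3% of all genes.

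Other cell types changed their markers over the same stages. All 5 measured Leydig cell markers rose between E13.5 and E17.5, with a median of 2.02, and their array means at E17.5 were 12.92 to 12.97 in M19 and 12.77 to 12.84 in 129, against 10.84 to 10.86 in M19 and 11.12 to 11.17 in 129 at E13.5. Of 9 measured interstitial mesenchyme markers, 6 rose and 2 fell, with a median of 0.40. Of 14 macrophage and myeloid markers, 1 rose and 1 fell, with a median of -0.02, and of 10 endothelial markers 2 rose and 3 fell. The germ cell list, with 8 measured, had 3 genes higher and 4 lower, and 4 of 7 red blood cell markers fell, with a median of -0.81. Of 7 lymphocyte markers 2 rose, of 8 Sertoli cell markers 4 rose and 1 fell, and of 8 mesonephros and coelomic surface markers 4 fell. Keratinocyte markers had 1 of 10 higher, skeletal muscle markers 3 of 10, and cartilage and tendon markers 3 of 10 higher and 1 lower. Of all genes, 16.3% rose and 10.9% fell. The part of these cell types in the rises of Ccl17, Cxcl12 and Cx3cl1 was not tested.

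Cxcl14, a CXC chemokine abundant in skin epithelium, was the 1 gene called between the strains at any single stage. At E13.5 it read 8.59 and 8.37 in M19, against 8.94 and 8.21 in 129. At E15.5 it read 8.38 and 8.44 in M19, against 9.76 and 9.98 in 129, and at E17.5 8.68 and 8.63 in M19, against 8.71 and 8.71 in 129. Both 129 arrays of E15.5 lay above all other arrays. The difference at E15.5 was -1.46 ± 0.20 (adjusted p = 0.00625), M19 being lower. It was not called without replicate 2 of 129 (adjusted p = 0.0681), replicate 1 of M19 (0.0982) or replicate 2 of M19 (0.0764) at that stage, with differences of -1.35, -1.43 and -1.49. The difference was -0.09 at E13.5 and -0.05 at E17.5. In 129 Cxcl14 rose by 1.30 ± 0.20 between E13.5 and E15.5 (adjusted p = 0.00291) and then changed by -1.16 ± 0.20 by E17.5 (adjusted p = 0.0138), the 1 fall among the 48 genes at that step, where 1.24% of all genes fell. That fall was not called without replicate 2 of 129 at E15.5 (adjusted p = 0.1) or without replicate 1 (0.104) or 2 (0.124) of 129 at E17.5. In M19 the same steps were -0.07 and 0.25, and neither was called.

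The second probe set of Cxcl14, 1418457_at, showed the same difference with a wider gap. At E15.5 it read 4.54 and 4.97 in M19, against 8.65 and 8.57 in 129. At E13.5 it read 5.34 and 5.54 in M19, against 5.56 and 5.23 in 129, and at E17.5 5.33 and 5.34 in M19, against 5.50 and 5.82 in 129. Its difference between M19 and 129 at E15.5 was -3.86 ± 0.17 (adjusted p = 2.48e-06), and its rise in 129 between E13.5 and E15.5 was 3.22 ± 0.17 (adjusted p = 2.24e-06). In M19 this probe set fell at that step, by 0.69 on the log2 scale (SE 0.17, adjusted p = 0.0445). Its M19 values lay below 8.17, the median of all probe set means. The brightest probe set averaged 8.48 and 8.41 in M19 at E13.5 and E15.5, and its step was not called. In 129, 1418457_at then changed by -2.96 ± 0.17 between E15.5 and E17.5 (adjusted p = 1.03e-05). The strain difference changed with stage for this probe set (F test of the interaction, adjusted p = 9.94e-05), and for the brightest one the same test gave an adjusted p of 0.19. None of the 48 genes passed that interaction test by its brightest probe set, with 2 at an unadjusted p under 0.05, and 0.203% of all genes did.

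Keratinocyte markers stood high on the same arrays. The 10 markers averaged 8.11 to 8.17 on the M19 arrays of E15.5 and 10.38 to 10.41 on the 129 arrays, and 8 of the 10 were lower in M19, with a median difference of -2.65. On the arrays of the other stages they averaged 8.15 to 8.54. Skeletal muscle markers averaged 7.35 to 7.36 in M19 and 8.82 to 8.86 in 129 at E15.5, with 7 of 10 lower in M19, and cartilage and tendon markers 7.88 to 7.89 and 9.06 to 9.19, with 5 of 10 lower. The part of these markers' tissues in the Cxcl14 values was not tested.

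**Figure D3:**
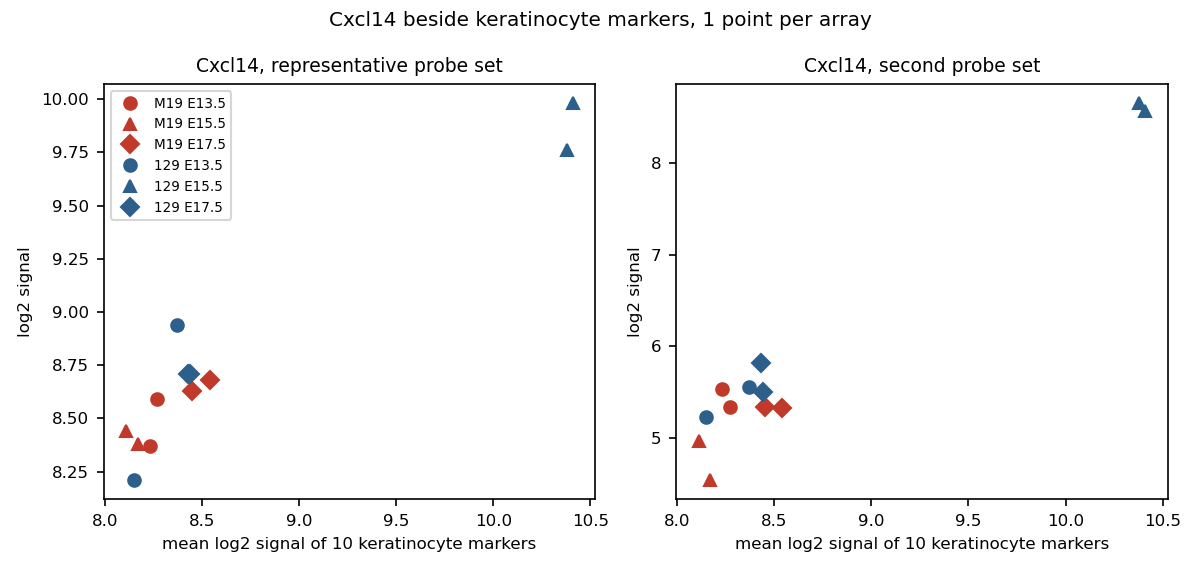
Log2 signal of Cxcl14 (vertical axes, not starting at 0; brightest probe set on the left, second on the right) against the mean log2 signal of 10 keratinocyte markers on each of the 12 arrays, M19 in red and 129 in blue, with a symbol per stage. The 2 arrays of 129 at E15.5 lie alone, with marker means of 10.38 and 10.41, and all other arrays have marker means of 8.54 or less.

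The strain comparisons called few of the 48 genes. At E13.5 none was called, with 1 at an unadjusted p under 0.05, and 0.033% of all genes were called. At E15.5 Cxcl14 was called lower in M19, or 1 of 48, against 0.533% of all genes, with 5 at an unadjusted p under 0.05. At E17.5 none was called, with 2 at an unadjusted p under 0.05, against 0.0934% of all genes. The differences ran from -0.30 to 0.27 at E13.5, from -1.46 to 0.50 at E15.5 and from -0.62 to 0.35 at E17.5, and their medians were -0.09, -0.01 and 0.04. Over all genes the medians were -0.06, 0.01 and 0.01.

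Averaged over the stages, the second probe set of Cxcl14, 1418457_at, differed by -1.38 ± 0.10 between the strains (limma adjusted p = 7.91e-05). By stage that difference was 0.05, -3.86 and -0.33 at E13.5, E15.5 and E17.5. By the brightest probe sets, Ccl17 was the 1 gene called in this averaged comparison. Its mean was 9.71 in M19 and 10.13 in 129, a difference of -0.42 ± 0.07 (adjusted p = 0.0278), where 0.346% of all genes were called lower. By stage the difference was -0.30 ± 0.12, -0.53 ± 0.12 and -0.44 ± 0.12 at E13.5, E15.5 and E17.5, and none of these passed the test alone (adjusted p = 1, 0.116 and 1). Leaving out each array in turn gave differences of -0.45 to -0.38, and the call did not hold in every fit. It was lost when either M19 array of E13.5 was left out, replicate 2 of either strain at E15.5, or any of the 4 arrays of E17.5, with differences of -0.44 to -0.38 and adjusted p up to 0.146. Without the E15.5 arrays the difference was -0.37 (adjusted p = 0.624). Leydig cell markers, which also rose with stage, had 0 of 5 genes called in the strain comparisons. At E13.5 they averaged 10.84 to 10.86 on the M19 arrays and 11.12 to 11.17 on the 129 arrays. The ranges were 12.54 to 12.56 and 12.36 to 12.46 at E15.5, and 12.92 to 12.97 and 12.77 to 12.84 at E17.5. The part of these cells in the strain difference of Ccl17 was not tested.

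**Figure D4:**
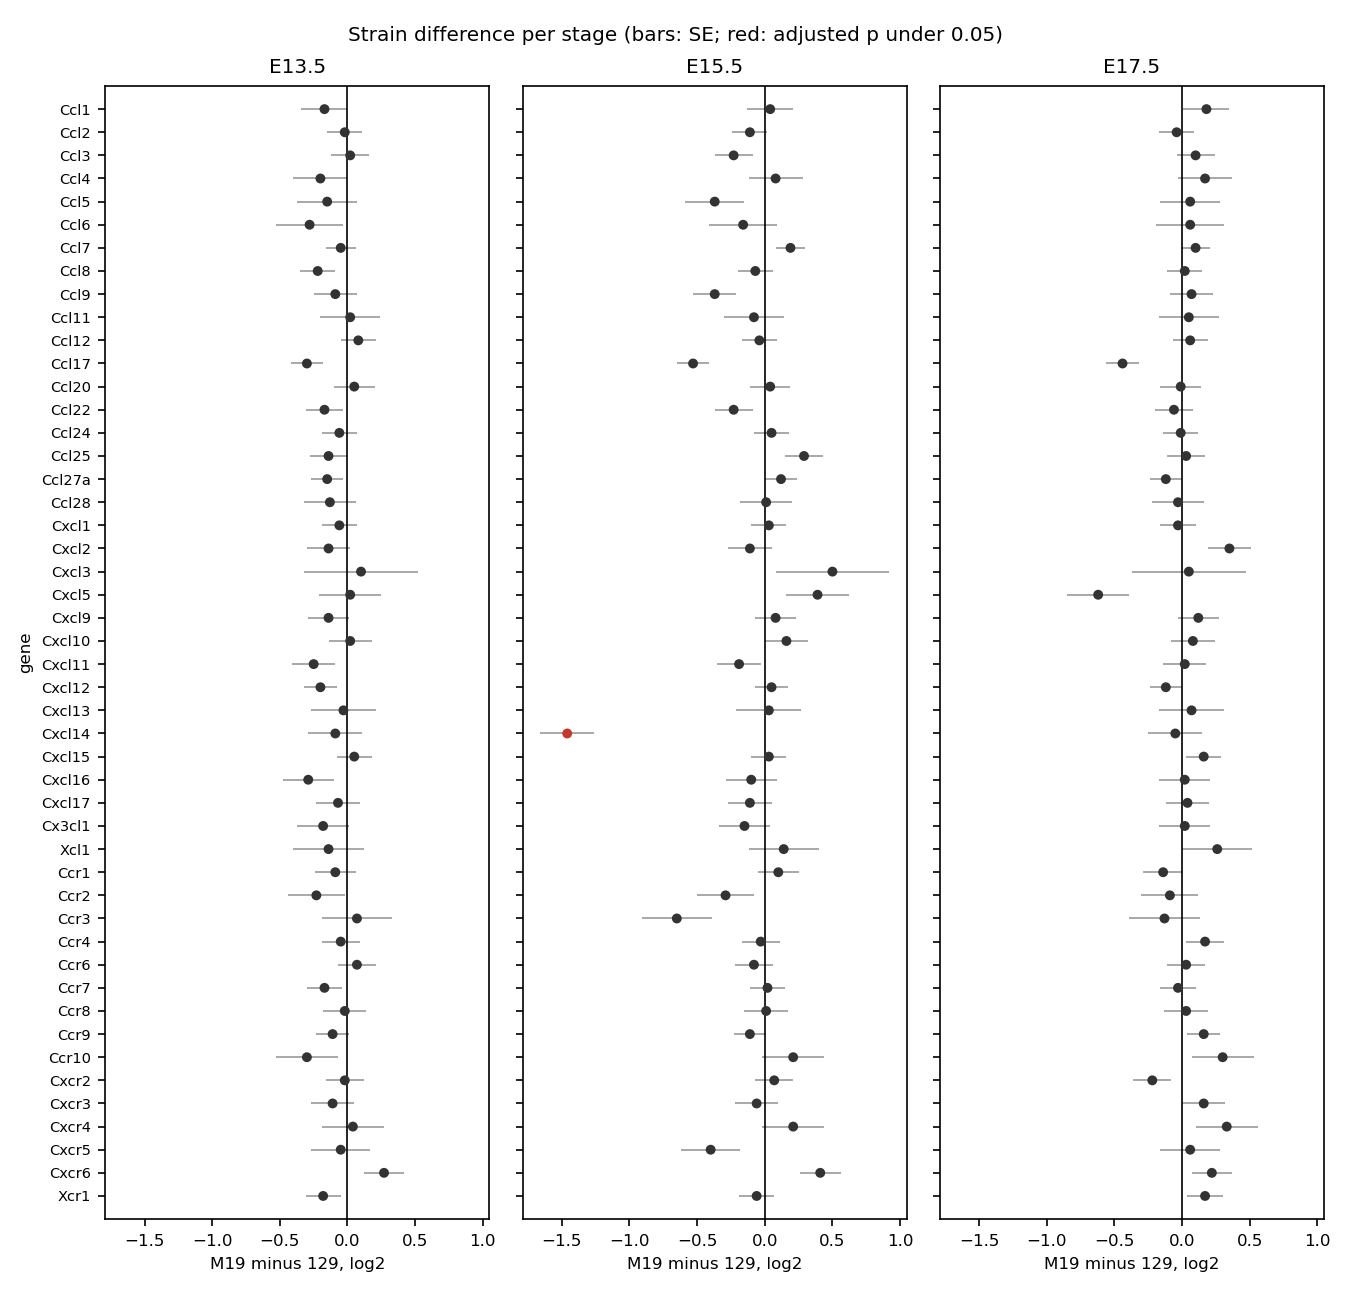
Difference in log2 signal, M19 minus 129, of the 48 chemokine and receptor genes at each stage, with bars for the standard error of the limma fit over 12 arrays and red for an adjusted p under 0.05. Ccl17 lies below 0 at all 3 stages, at -0.30, -0.53 and -0.44, and Cxcl14 lies at -1.46 at E15.5 and near 0 at the other stages.

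Among receptors, Cxcr4, which germ cells use to follow Cxcl12, did not pass a test in any comparison. It read 8.52 and 8.85 at E13.5, 9.26 and 9.06 at E15.5 and 8.96 and 9.32 at E17.5 in M19. In 129 Cxcr4 read 8.30 and 8.98 at E13.5, 8.72 and 9.18 at E15.5 and 8.78 and 8.85 at E17.5, so the stages overlap. It differed by 0.39 ± 0.16 between E15.5 and E13.5 (adjusted p = 0.186) and by 0.33 ± 0.23 between M19 and 129 at E17.5 (adjusted p = 1), where both M19 arrays lay above both 129 arrays. Ackr3, the scavenging receptor of Cxcl12 and not 1 of the 48 genes, read 9.62 and 9.67 at E13.5, 9.36 and 9.06 at E15.5 and 9.10 and 9.42 at E17.5 in M19. Its 129 arrays read 9.34 and 9.90 at E13.5, 9.31 and 9.71 at E15.5 and 9.35 and 9.29 at E17.5, and the strains overlapped at every stage.

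Cxcr3, the receptor of Cxcl9, Cxcl10 and Cxcl11 on T cells, read 8.84 and 8.85 at E13.5, 8.66 and 8.73 at E15.5 and 9.22 and 8.99 at E17.5 in M19. In 129 Cxcr3 read 9.15 and 8.77 at E13.5, 8.68 and 8.84 at E15.5 and 9.10 and 8.80 at E17.5. The strains overlapped at each stage, and the difference between E17.5 and E15.5, 0.30 ± 0.11, was not called (adjusted p = 0.141). Ccr10, the receptor of Ccl27 and Ccl28, read 8.86 and 8.73 at E13.5, 8.76 and 9.38 at E15.5 and 9.40 and 9.13 at E17.5 in M19. Its 129 arrays read 9.35 and 8.84 at E13.5, 8.95 and 8.77 at E15.5 and 8.78 and 9.15 at E17.5. The SD between the 2 arrays of a group reached 0.44, and Ccr10 was not called in any comparison. Ccr2, which brings monocytes to sites of Ccl2, read 8.38 and 8.22 at E13.5, 8.08 and 8.38 at E15.5 and 8.31 and 8.62 at E17.5 in M19. In 129 Ccr2 read 8.73 and 8.34 at E13.5, 8.21 and 8.82 at E15.5 and 8.58 and 8.54 at E17.5, overlapping at each stage. Of its 3 other probe sets, 1421188_at rose by 0.46 ± 0.11 between E13.5 and E15.5 (adjusted p = 0.0189) and by 0.41 ± 0.11 between E13.5 and E17.5 (adjusted p = 0.0185). The other two, 1421187_at and 1460067_at, differed by -0.06 and -0.04 at the first of these steps and by 0.11 and -0.09 over the whole interval, and neither was called.

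Cxcr6, the receptor of Cxcl16 and below the median of all probe sets, had both M19 arrays above both 129 arrays at each stage. It read 6.72 and 6.52 at E13.5, 6.66 and 6.92 at E15.5 and 6.90 and 6.74 at E17.5 in M19. Its 129 arrays read 6.23 and 6.47 at E13.5, 6.23 and 6.53 at E15.5 and 6.55 and 6.64 at E17.5. The mean difference was 0.30 ± 0.09 and was not called (adjusted p = 0.5). The second probe set of Cxcr6, 1425832_a_at, ran the other way at E13.5, with 6.32 and 6.31 in M19, against 6.49 and 6.36 in 129. At E15.5 and E17.5 both M19 arrays lay above both 129 arrays in this probe set too. Its difference averaged over the stages was 0.09 ± 0.07 (adjusted p = 1). Cxcl16 itself, a membrane-bound chemokine that also takes up oxidised lipoprotein, read 9.09 and 8.86 at E13.5, 8.97 and 9.23 at E15.5 and 9.54 and 9.35 at E17.5 in M19. The 129 arrays of Cxcl16 read 9.57 and 8.95 at E13.5, 9.20 and 9.22 at E15.5 and 9.41 and 9.44 at E17.5. All E17.5 arrays of Cxcl16 lay above all E15.5 arrays, and the difference between E17.5 and E13.5 was 0.32 ± 0.13 (adjusted p = 0.109). Its second probe set, 1449195_s_at, rose by 0.64 ± 0.11 between E13.5 and E17.5 (adjusted p = 0.00179) and by 0.50 ± 0.11 between E15.5 and E17.5 (adjusted p = 0.0211).

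**Figure D5:**
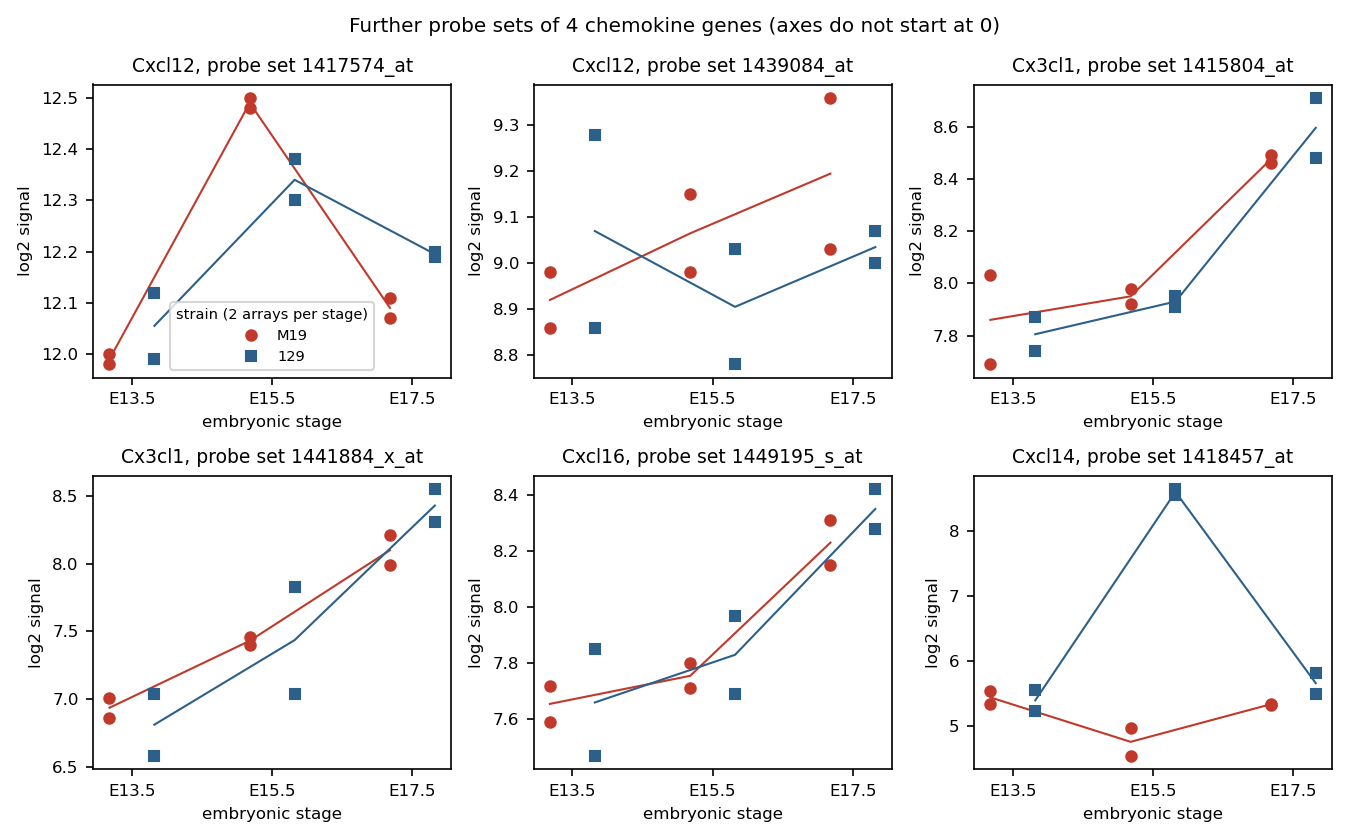
Log2 signal (vertical axis, not starting at 0) of further probe sets of 4 genes against embryonic stage, M19 as red circles and 129 as blue squares, with lines through the group means of 2 arrays. Both Cx3cl1 probe sets and that of Cxcl16 are highest at E17.5, Cxcl12 1417574_at is highest at E15.5, and Cxcl14 1418457_at is high on the 129 arrays of E15.5 alone.

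The CC ligands other than Ccl17 and Ccl22 that lay above the median were Ccl4, Ccl5, Ccl8, Ccl25 and Ccl28, and none was called. Ccl4, an inflammatory chemokine made by activated leukocytes, read 9.46 and 9.53 at E13.5, 9.44 and 9.67 at E15.5 and 9.94 and 10.19 at E17.5 in M19. In 129 Ccl4 read 9.95 and 9.44 at E13.5, 9.27 and 9.69 at E15.5 and 10.06 and 9.73 at E17.5. All 4 E17.5 arrays lay above the 4 E15.5 arrays, and the difference was 0.46 ± 0.14 (adjusted p = 0.0818). Ccl5, a chemokine of T cells and platelets, read 8.44 and 8.35 at E13.5, 7.93 and 8.29 at E15.5 and 8.34 and 8.48 at E17.5 in M19. In 129 Ccl5 read 8.82 and 8.26 at E13.5, 8.33 and 8.62 at E15.5 and 8.61 and 8.10 at E17.5, and both M19 arrays lay below both 129 arrays at E15.5, by -0.37 ± 0.22 (adjusted p = 0.798). Ccl8, which attracts monocytes, read 8.26 and 8.10 at E13.5, 8.10 and 8.23 at E15.5 and 8.29 and 8.32 at E17.5 in M19, and 8.53 and 8.27 at E13.5, 8.20 and 8.27 at E15.5 and 8.41 and 8.17 at E17.5 in 129.

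Ccl25, which guides T cell precursors to the thymus and T cells to the gut, read 8.49 and 8.62 at E13.5, 8.76 and 8.72 at E15.5 and 8.63 and 8.82 at E17.5 in M19. In 129 Ccl25 read 8.85 and 8.53 at E13.5, 8.44 and 8.47 at E15.5 and 8.82 and 8.56 at E17.5. At E15.5 both M19 arrays lay above both 129 arrays, by 0.29 ± 0.14 (adjusted p = 0.708). The second probe set of Ccl25, 1418777_at, had the opposite sign at E15.5, at -0.07 ± 0.15, and was not called. Ccl28, a mucosal chemokine, read 8.59 and 8.42 at E13.5, 8.51 and 8.64 at E15.5 and 8.77 and 8.68 at E17.5 in M19. In 129 it read 8.87 and 8.40 at E13.5, 8.79 and 8.35 at E15.5 and 8.89 and 8.63 at E17.5, and its strains overlapped at every stage.

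The remaining CXC ligands above the median were Cxcl1, Cxcl10, Cxcl13 and Cxcl17. Cxcl1, which attracts neutrophils through Cxcr2, read 9.80 and 9.82 at E13.5, 9.63 and 9.80 at E15.5 and 9.85 and 9.80 at E17.5 in M19. In 129 Cxcl1 read 10.04 and 9.71 at E13.5, 9.70 and 9.68 at E15.5 and 9.93 and 9.79 at E17.5, and the strains and stages overlapped. Its probe set 1419209_at rose by 0.34 ± 0.11 between E13.5 and E17.5 (adjusted p = 0.046), and 1457644_s_at, at 0.28 ± 0.11, was not called (adjusted p = 0.0966). Cxcl10, an interferon-induced ligand of Cxcr3, read 8.28 and 8.18 at E13.5, 8.16 and 8.41 at E15.5 and 8.38 and 8.17 at E17.5 in M19. In 129 Cxcl10 read 8.35 and 8.06 at E13.5, 8.31 and 7.94 at E15.5 and 8.26 and 8.13 at E17.5, with overlap throughout. Cxcl13, which attracts B cells through Cxcr5, read 8.39 and 8.22 at E13.5, 8.24 and 8.53 at E15.5 and 8.66 and 8.56 at E17.5 in M19, and 8.64 and 8.02 at E13.5, 8.64 and 8.07 at E15.5 and 8.77 and 8.31 at E17.5 in 129, also with overlap. Cxcl17, a chemokine of mucosal surfaces, read 8.39 and 8.32 at E13.5, 8.09 and 8.25 at E15.5 and 8.33 and 8.28 at E17.5 in M19. Its 129 arrays read 8.69 and 8.17 at E13.5, 8.32 and 8.24 at E15.5 and 8.26 and 8.26 at E17.5, and its differences were not called.

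The other 29 genes lay at or below the median of all probe set means, and none of them was called in any comparison. The 18 ligands among them were the monocyte attractants Ccl2, Ccl7 and Ccl12, the eotaxins Ccl11 and Ccl24, the neutrophil attractants Cxcl2, Cxcl3 and Cxcl5, the Cxcr3 ligands Cxcl9 and Cxcl11, and Ccl1, Ccl3, Ccl6, Ccl9, Ccl20, Ccl27a, Cxcl15 and Xcl1. The 11 receptors were Ccr1, Ccr3, Ccr4, Ccr6, Ccr7, Ccr8, Ccr9, Cxcr2, Cxcr5, Cxcr6 and Xcr1. Their array values ran from 3.11, for Cxcl5, to 8.24, for Ccl6, which stood highest on replicate 1 of 129 at E13.5. Over all 48 genes, 38 had group means that spanned less than 0.5, and 40 had less than 1 unit between their lowest and highest array. The largest SD between the 2 arrays of a group exceeded 0.3 for 24 genes. A single array set the strain difference of Ccr3. At E15.5 this eotaxin receptor of eosinophils read 6.43 and 6.47 in M19, against 6.60 and 7.60 in 129, and its other arrays lay between 6.38 and 6.81. The difference at E15.5 was -0.65 ± 0.26 (adjusted p = 0.558).
Among dimmer probe sets, Cxcl11 1419698_at fell by 0.78 on the log2 scale between E13.5 and E17.5 (SE 0.25, adjusted p = 0.0418), in the opposite direction to the gene's brightest probe set.

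The pathway list held 42 genes that act around chemokines, among them atypical receptors, G protein subunits, receptor kinases and arrestins, and 39 were measured. In the strain comparisons 0 of the 39 were called, at any stage or averaged. Between E13.5 and E15.5, averaged over the strains, 4 of the 39 rose and 3 fell, where 9.8% of all genes rose and 4.52% fell. Sdc4, a heparan sulphate proteoglycan of the cell surface, rose by 1.28 ± 0.12 (adjusted p = 5e-05), and Arrb2, the arrestin that internalises chemokine receptors, by 0.89 ± 0.08 (adjusted p = 2.23e-05). The receptor kinase Grk5 rose by 0.69, and the G protein subunits Gng2 and Gnai1 changed by -0.61 and -0.49.

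Between E15.5 and E17.5, 2 of the 39 pathway genes rose and 3 fell, where 4.46% of all genes rose and 4.58% fell. Sdc4 changed by -1.01 ± 0.12 (adjusted p = 0.000826) and Arrb2 by -0.41, and Ptk2b, a focal adhesion kinase relative, by -0.36. Rarres2, the precursor of the attractant chemerin, rose by 0.47, and Itch, a ubiquitin ligase that sorts Cxcr4 for degradation, by 0.37. Over the whole interval from E13.5 to E17.5, 4 of the 39 rose and 4 fell, where 16.3% of all genes rose and 10.9% fell. The 5 with the largest change were Gng2 at -0.58, Cd74, a receptor of the cytokine Mif, at 0.55, the receptor kinase Grk6 at -0.52, Arrb2 at 0.48 and Rarres2 at 0.46.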

How the data were processed

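Gene expression was measured on 12 Affymetrix whole-genome mouse arrays, 2 for each of 6 groups. The deposited values are 1 number per probe set and array and were taken as log2 from their range. The summary method, the normalization and the log base are not given in the sources used here, and neither is a genome build for the array. Control probe sets (64 of 45101) were left out. Gene names come from the platform annotation, and probe sets of several genes (932) were not used for genes. Arrays have no read depth, and their number limits the precision.

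A linear model of the 6 group means was fitted to all 12 arrays with limma 3.58.1 in R 4.3.3, with eBayes (6 residual and 4.82 prior degrees of freedom), two-sided tests and Benjamini-Hochberg adjustment over 45037 probe sets. The interaction of strain and stage was an F test. The procedure was tested on simulated data with independent noise on each array and known shifts in M19 at E15.5 alone. That setting does not cover arrays that deviate together or replicates from a shared pool. Python 3.11.15, pandas 2.3.3 and matplotlib 3.10.9 served for promoters and figures.

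The members, the marker and pathway lists, the tests and the naming rule were chosen with earlier results of these data known. Genes are given on every array where they were called, had a mean over 8.17 (the median probe set mean), or are Cxcl12, Cxcr4 or Ackr3. Partners of described genes may be added, and the 5 largest called changes of the pathway list are named. Alternatives were quantile normalization, median centring, a filter on dim probe sets, another variance model, a replicate block, the mean of all probe sets of a gene, the compared arrays alone, no E15.5 arrays, and each array left out.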

Additional observations from a re-analysis of the deposited data

Results flagged for a closer look

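The difference between M19 and 129 in the second probe set of Cxcl14, 1418457_at, changed with embryonic stage. The F test of the interaction of strain and stage in limma gave an adjusted p of 9.94e-05. The difference was -3.86 ± 0.17 at E15.5, where M19 read 4.54 and 4.97 and 129 read 8.65 and 8.57, and both strains lay between 5.23 and 5.82 at E13.5 and E17.5. The brightest probe set of Cxcl14 gave an adjusted p of 0.19 in the same test.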

How the results depend on the processing

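Of 337 values of named genes under an alternative, 306 kept their direction and call, 31 lost the call and 0 turned direction. The count of chemokine and receptor genes called at E15.5 between M19 and 129 was 1, and 2 under quantile normalization or with the mean of all probe sets of a gene. Between E15.5 and E17.5 in M19 it was 1, and 2 with a trended robust variance or the mean of all probe sets. Between E13.5 and E15.5 in 129 it was 3, and 1 on the compared arrays alone, where Cxcl12 (adjusted p = 0.191, and 0.0609 with the mean of all probe sets) and Cxcl14 (0.0969) were not called. For the strains averaged over the stages it was 1, then 2 with the mean of all probe sets and 0 without the E15.5 arrays. Between E15.5 and E17.5 averaged over the strains it was 2, and 4 under quantile normalization or with the mean of all probe sets, where Cxcl12 differed by 0.09 (adjusted p = 0.339). Between E13.5 and E17.5 it was 3, 2 without the E15.5 arrays, 4 under quantile normalization and 5 with the mean of all probe sets. Between E15.5 and E17.5 in 129 it was 2, and 3 with the filter on dim probe sets, the trended robust variance or the mean of all probe sets. For the interaction it was 0, and 1 with that mean.

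Leaving out each array in turn gave 0 to 2 genes at E15.5 between the strains, 1 to 2 between E15.5 and E17.5 in M19, 3 to 4 between E13.5 and E15.5 in 129 and 1 to 3 between E15.5 and E17.5 in 129. It gave 0 to 2 for the strains averaged, 2 to 5 between E13.5 and E15.5, 1 to 5 between E15.5 and E17.5 and 2 to 10 between E13.5 and E17.5 averaged over the strains, and 0 to 1 for the interaction. At E15.5 Cxcl14 was not called without replicate 2 of 129 (adjusted p = 0.0681) or replicate 1 (0.0982) or replicate 2 (0.0764) of M19 at that stage, and Ccr3 was called beside it without replicate 1 of 129. Cx3cl1 between E13.5 and E17.5 was not called in 5 of 12 such fits (0.45 to 0.52, highest adjusted p 0.0837) or without the E15.5 arrays (0.0504). Where an array was left out, the lone array of its group was assumed to vary like the other groups. The share of all genes called moved too without replicate 1 of 129 at E13.5. It was not counted under the other alternatives, so their counts of chemokine and receptor genes are not set against all genes. The causes were not tested.

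With the replicate number as a replicate block the counts were 1 at E15.5 between the strains and 3 between E13.5 and E17.5, and no count or call of a named gene changed. Same-numbered arrays did not deviate together in all groups. The correlations ran from -0.37 to 0.54 over 15 pairs of groups, with 6 over 0.1, and were 0.51 to 0.54 among 129 at E13.5, 129 at E15.5 and M19 at E17.5. Since not every pair lay over 0.1, the numbers were not taken to pair samples.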
